A study of Homo sapiens with 6 samples.

Results

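The genes described here are the *WNT* ligands, their receptors, the proteins that pass the signal on or destroy it, the nuclear factors it reaches and the genes it is known to switch on. They were chosen by symbol from a fixed list of names plus every symbol that begins with WNT and a digit, by a rule that itself uses no measured value but was written with earlier results of these data known. This gave 70 of the 17177 genes in the deposited table. The RNA came from NCI-H660, an established human cell line from a neuroendocrine prostate cancer, labelled wild type in every library. Cells were treated with PP (pyrvinium pamoate, an approved anthelmintic drug) or with the buffer PBS as control and were sampled at day 3, with 3 libraries per treatment and no other group. All values come from 1 cell line, and the concentration of PP used for these libraries is not given in the sources used here.

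In the canonical pathway, a WNT protein that has been lipid-modified by PORCN and carried to the cell surface by WLS binds a frizzled receptor together with LRP5 or LRP6. Dishevelled proteins are then recruited and the destruction complex is held at the membrane. Without ligand, that complex (the scaffolds AXIN and APC with the kinases CK1α and GSK3) marks β-catenin for breakdown. When it is held back, β-catenin enters the nucleus, binds TCF/LEF proteins and switches on targets such as *AXIN2*, *LEF1*, *NKD1*, *RNF43* and *SP5*, several of which feed back on the pathway. PP has been reported to act on CK1α, encoded by *CSNK1A1*. RNA levels do not show the amount of β-catenin protein or its place in the cell.

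Values are FPKM, fragment counts scaled by a gene length and library size. The recovered lengths differed widely, such as 14301 bases for *TCF7* and 2740 for *LEF1*. Whether each length matches the transcripts present in these cells was not tested. Levels of different genes, and shares built on them, thus compare only roughly. Median-ratio factors of the libraries ran from 0.9895 to 1.014, and that scaling was tried as an alternative. The whole counts behind the FPKM could be recovered. They came to 29217691 to 32655272 per library, the highest 11.8% above the lowest. Of the 9 neuroendocrine marker genes looked up, 9 were listed and 8 averaged 1 FPKM or more. The summed FPKM of the neuroendocrine markers was 792.2 to 800.4 in the PBS libraries and 398.5 to 416.3 in the PP libraries. Most markers of other cell types were low, and *PTPRC* of immune cells and *PECAM1* of endothelium held 0 to 4 counts per library. Not all were absent. *CDH5* of endothelium held 435 to 481 counts with PBS and 282 to 351 with PP. *COL1A1* of fibroblasts held 591 to 599 and 725 to 801. Of 5 luminal prostate markers, 3 were listed and 0 averaged 1 FPKM or more. Their sum was 0.8214 to 1.374 FPKM with PBS and 0.3917 to 0.788 with PP. The summed FPKM of 4 immune markers was 1.323 to 1.903 with PBS and 0.8725 to 1.335 with PP, that of 5 fibroblast markers was 4.028 to 4.472 and 4.476 to 4.808, and that of 3 endothelial markers was 4.246 to 4.689 and 2.956 to 3.378. Whether the fall of the neuroendocrine markers has a part in the differences below was not tested. In bulk RNA, fewer cells that express a gene and less RNA per cell cannot be told apart.

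A difference is the mean of log2(FPKM + 1) with PP less that with PBS. It is given with its standard error (SE) and the Benjamini-Hochberg adjusted p from limma, fitted over the 11726 genes whose FPKM averaged 1 or more. A gene is called higher or lower where that adjusted p is under 0.05. The study's legends call the 3 libraries of a treatment independent samples without saying whether they were separate cultures, and the labels do not say either, so p-values measure the spread between these libraries, part of which may be technical.

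Of the 70 genes, 45 passed the filter and were tested. With PP, 13 were higher and 19 were lower, and the other 13 were not called. Among all genes tested, 38.1% were called higher and 34.4% lower, against 28.9% and 42.2% of these 45, so calls in both directions were common among all genes. Their median log2 difference was -0.10, beside 0.02 over all genes. A difference of more than 0.5 in either direction was seen in 9 of the 45, which is 20% beside 23.8% of all genes. Past the stricter limits in the study's methods (an unadjusted P under 0.001 and a log2 difference past 1) there were 3 genes, *TCF7L1*, *WNT10A* and *WNT7B*, and each was lower with PP. Over all genes, 2.24% passed these limits upward and 2.93% downward. The PP libraries lay wholly above the PBS libraries in 15 of the 45 genes and wholly below in 20, against 39.5% and 35.5% of all genes. On the recovered counts, limma-voom called 14 of the 45 higher and 19 lower, beside 38.6% and 34.8% of all genes.

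**Figure D1:**
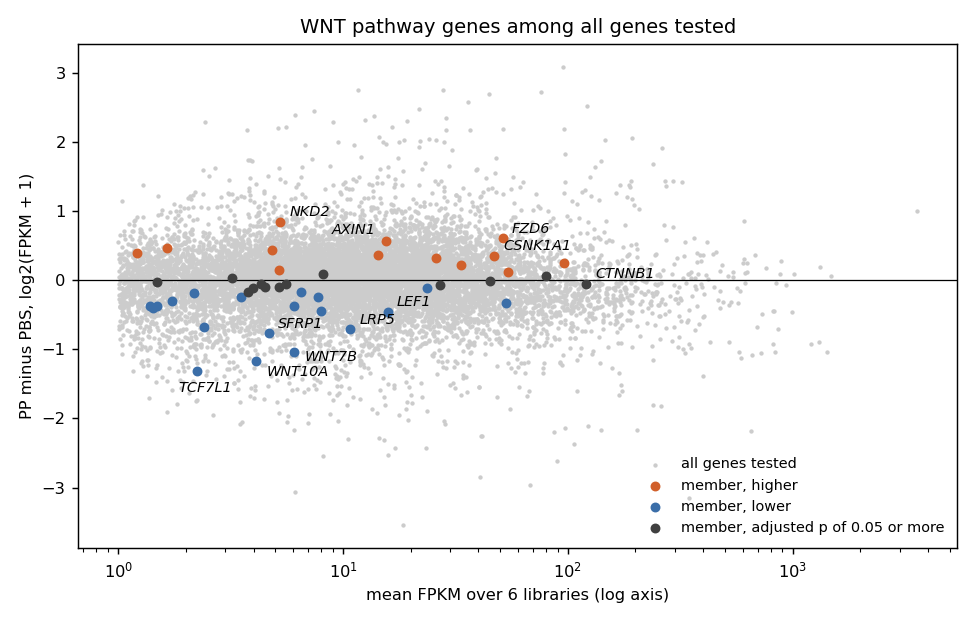
Each point is a gene whose FPKM averaged 1 or more, plotted by its mean FPKM over the 6 libraries (x, log axis) and its difference in log2(FPKM + 1) between PP and PBS (y). Grey points are all 11726 genes tested and coloured points the 45 WNT pathway genes, which lie between -1.31 (*TCF7L1*) and 0.85 (*NKD2*), inside the cloud of all genes.

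The other 25 genes were low. For the 16 with a mean FPKM from 0.1 to 1, a second fit over the 13771 genes averaging 0.1 or more called *WNT4* and *WNT8B* lower and none higher, beside 32.4% lower and 34.4% higher of all genes in that fit. None of the 16 was higher at an unadjusted p under 0.05, and limma-voom on the recovered counts called 6 lower and none higher, beside 33.1% lower and 35.1% higher of the same 13771 genes. The 9 under 0.1 were *WNT1*, *WNT3A*, *WNT8A*, *WNT9B*, *WNT16*, *FZD10*, *ROR1*, *DKK1* and *NKD1*, and they received no test. *NKD1*, a target that encodes a dishevelled antagonist, held 0 counts in every library, which allows up to 3 counts per library. *DKK1*, a secreted blocker of LRP5 and LRP6, held 2, 1 and 6 counts in the PBS libraries and 1, 0 and 0 in the PP libraries, all too few to compare.

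Because several genes of the list are targets of TCF/LEF proteins, the promoters were searched on both strands for ATCAAAG and TTCAAAG, forms of the core those proteins bind. Other forms of that core were not searched. The windows are those of RefSeq on GRCh38.p14, from 250 bases before to 50 after a gene's start. A window was present for 49 of the 70 genes, 63 windows in all, and 2 of these (3.17%) held a match, beside 6.86% of all 35116 windows. Of the 12 genes taken as direct targets, 6 had a window and 2 of those held a match, while *AXIN2*, *LGR5*, *NKD1*, *NOTUM*, *SOX9* and *ZNRF3* were not searched. ATCAAAG was in 2.62% of all windows and TTCAAAG in 4.43%. *SP5*, a transcription factor gene and WNT target, held 3 matches, beginning 148, 109 and 84 bases before its start, with the middle one on the other strand. Only 0.0256% of all windows (9 of them) held 3 or more. *DKK1* held 1, on the other strand, beginning 95 bases before its start. The window of *SP5* (chr2:170715087-170715386, plus strand) is printed with the matches in capitals because it is the densest, and that of *TCF7L1* (chr2:85133142-85133441, plus strand) because that gene had the largest fall of the list and holds no match. A match is a run of letters and not evidence of binding, and a window without one says nothing of TCF/LEF sites elsewhere.
SP5: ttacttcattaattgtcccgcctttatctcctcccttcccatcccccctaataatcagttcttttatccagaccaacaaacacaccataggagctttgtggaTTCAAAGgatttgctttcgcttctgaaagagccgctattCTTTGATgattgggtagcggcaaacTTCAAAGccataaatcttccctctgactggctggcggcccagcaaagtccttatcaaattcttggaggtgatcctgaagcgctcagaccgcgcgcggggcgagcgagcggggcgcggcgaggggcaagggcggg
TCF7L1: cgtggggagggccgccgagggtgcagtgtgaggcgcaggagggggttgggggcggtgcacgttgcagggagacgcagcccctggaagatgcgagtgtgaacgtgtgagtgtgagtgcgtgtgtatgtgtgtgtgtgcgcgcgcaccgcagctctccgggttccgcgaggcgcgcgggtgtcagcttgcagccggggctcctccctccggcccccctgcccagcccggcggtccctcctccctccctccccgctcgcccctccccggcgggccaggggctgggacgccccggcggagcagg

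Of 19 genes for ligands and their secretion, 7 were tested, of which 2 were higher, 3 were lower and 2 were not called. These are 28.6% and 42.9%, near the 38.1% and 34.4% of all genes. The main ligand transcripts of the control cells were *WNT7B*, *WNT10A*, *WNT3* and *WNT9A*, and the first 2 fell most. *WNT10A* (chr2:218874116-218893928 in RefSeq, GRCh38.p14) stood at 6.06, 6.16 and 5.94 FPKM in the PBS libraries and at 2.24, 1.95 and 2.22 in the PP libraries. All PP values were below all PBS values, and the spread within each treatment was small beside the gap. The log2 difference was -1.17 (SE 0.06, adjusted p = 6.44e-08), with 405 to 421 counts per PBS library and 132 to 163 per PP library. *WNT7B* (chr22:45920366-45977162) had 8.77, 8.64 and 8.004 FPKM with PBS and 3.82, 3.44 and 3.53 with PP. The 2 sets were again apart, with a log2 difference of -1.04 (SE 0.06, adjusted p = 1.15e-07).

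*WNT11*, a ligand known mostly for signalling without β-catenin, moved the other way. Its FPKM was 1.26, 0.82 and 1.62 with PBS and 2.39, 1.77 and 2.048 with PP. The PBS libraries were uneven, and the lowest PP library was just above the highest PBS library. The log2 difference was 0.47 (SE 0.13, adjusted p = 0.00717), and limma-voom on the recovered counts gave 0.78. *WNT3* was higher by only 0.15 (SE 0.06, adjusted p = 0.0434), a call that was lost under 10 of 15 alternative settings, among them the omission of PBS replicate 1 or 3 or of any PP library (adjusted p = 0.0508 to 0.141). *WNT9A* differed by -0.12 (95% interval -0.25 to 0.02, adjusted p = 0.117) and was not called.

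Among the scarce ligands, *WNT4* was at 0.501 to 0.715 FPKM with PBS and 0.260 to 0.322 with PP, a log2 difference of -0.31 (SE 0.07, adjusted p = 0.00293 over 13771 genes). *WNT8B* rested on 17 to 29 counts per PBS library and 9 or 10 per PP library, with a log2 difference of -0.21 (SE 0.07, adjusted p = 0.0219), and its call was lost without PBS replicate 3 (adjusted p = 0.0843), PP replicate 2 (0.0544) or PP replicate 3 (0.0523). *WNT5A* and *WNT6* were not called on the FPKM scale, at -0.12 and -0.32. On that scale the added 1 shrinks differences of such low genes. With limma-voom on the recovered counts, *WNT4* differed by -1.05 (adjusted p = 0.00175) and *WNT8B* by -1.10 (adjusted p = 0.0478). In the same fit *WNT5A* differed by -0.67 (adjusted p = 0.0128) and *WNT6* by -1.23 (adjusted p = 0.0445). *WNT6* was also called on the FPKM scale without PBS replicate 1 (adjusted p = 0.0259) or PP replicate 1 (0.0218). The remaining scarce ligands *WNT2B*, *WNT5B* and *WNT10B* differed by 0.02, 0.10 and 0.09 and were not called. For them limma-voom gave 0.18, 0.65 and 0.64, also not called (adjusted p = 0.195 to 0.575).

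The summed FPKM of the 17 WNT genes was 27.17 ± 0.47 with PBS and 18.66 ± 1.08 with PP (mean ± SD, n = 3). The make-up of that sum shifted as well. *WNT7B* went from 31.19% ± 1.85 to 19.28% ± 0.16 of it and *WNT10A* from 22.28% ± 0.55 to 11.44% ± 0.70. *WNT3* went from 17.99% ± 1.06 to 29.63% ± 1.92, so it was the leading WNT transcript of the PP libraries, although its own level differed little. No test was made on these sums and shares, and in none of the 4 did the libraries of the 2 treatments overlap.

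**Figure D2:**
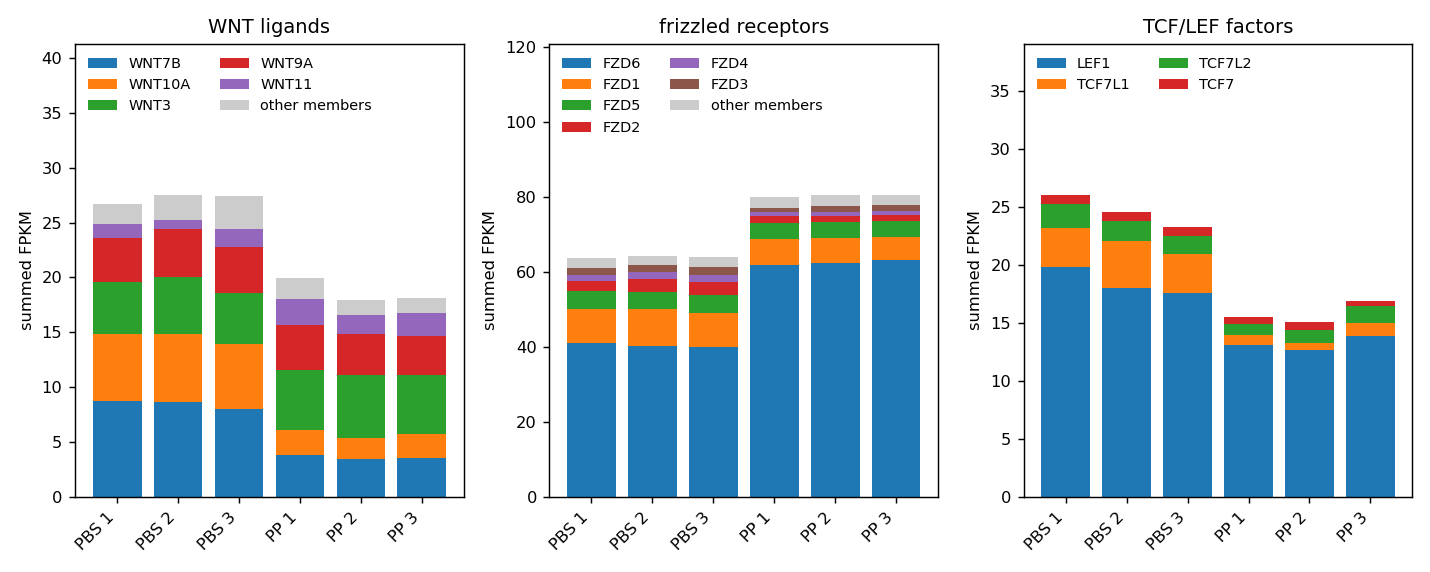
Stacked bars give the summed FPKM of the WNT ligands, the frizzled receptors and the TCF/LEF factors in each of the 6 libraries, with 1 colour per gene and grey for the rest of the family. The ligand bars drop from about 27.17 to 18.66 with PP as *WNT7B* and *WNT10A* shrink, the frizzled bars rise from 64.02 to 80.34 through *FZD6*, and the TCF/LEF bars drop from 24.67 to 15.84.

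Of the secretion factors, *WLS*, the carrier of WNT proteins, was far more abundant than any ligand. It had 57.76, 59.42 and 60.05 FPKM with PBS and 47.95, 48.13 and 44.18 with PP. Every PP library was below every PBS library, with a log2 difference of -0.33 (SE 0.04, adjusted p = 4.4e-05). *PORCN*, the acyltransferase that adds the lipid, was not called at -0.10 (95% interval -0.33 to 0.13, adjusted p = 0.421), and its PBS libraries alone ran from 4.63 to 6.68 FPKM.

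Of the 15 receptor genes, 10 were tested, of which 2 were higher, 6 were lower and 2 were not called. The shares were 20% higher and 60% lower, beside 38.1% and 34.4% of all genes. *FZD6* was the most abundant frizzled gene and the one that rose. It had 41.08, 40.4 and 39.99 FPKM in the PBS libraries and 61.77, 62.33 and 63.27 in the PP libraries. Both sets were tight and wide apart, at a log2 difference of 0.61 (SE 0.03, adjusted p = 9.14e-08) on 4371 to 4695 counts per PBS library and 6950 to 7652 per PP library. *FZD2* went the other way, from 2.72, 3.37 and 3.57 FPKM to 1.72, 1.52 and 1.61. Its 2 sets did not overlap and the log2 difference was -0.68 (SE 0.08, adjusted p = 3.94e-05).

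*FZD1* had 8.96, 9.79 and 9.22 FPKM with PBS and 7.005, 6.735 and 6.055 with PP. It too had no overlap and fell by 0.44 on the log2 scale (SE 0.06, adjusted p = 8.46e-05). *FZD4* differed by -0.40 (adjusted p = 0.000314) and *FZD3* by -0.30 (adjusted p = 0.00997). In the GENCODE annotation mapped to GRCh37, 18.9% of the exonic bases of *FZD4* are shared with *PRSS23* on the opposite strand. *FZD5* at -0.10 (95% interval -0.22 to 0.02) and *FZD9* at -0.02 (-0.21 to 0.16) were not called. Nor were the scarcer *FZD7* at 0.10 and *FZD8* at 0.18, although *FZD8* was called without PBS replicate 1 (adjusted p = 0.0258). Because *FZD6* held most of the frizzled RNA, the sum over the 10 frizzled genes was 64.02 ± 0.34 FPKM with PBS and 80.34 ± 0.36 with PP (SD, n = 3) although 4 of the 7 tested members fell. The share of *FZD6* in it was 63.25% ± 1.05 and 77.75% ± 0.75. *FZD6* is known for planar cell polarity and for signalling without β-catenin.

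Both LRP co-receptors, which are needed for signalling through β-catenin, were lower with PP. *LRP5* (chr11:68298412-68449275) had 12.4, 14.4 and 13.9 FPKM with PBS and 8.11, 7.96 and 7.75 with PP. The PP libraries were close together and well below the PBS libraries, at a log2 difference of -0.70 (SE 0.06, adjusted p = 2.01e-06). *LRP6* differed by -0.17 (SE 0.06, adjusted p = 0.0209), and this call was lost without PBS replicate 2 (adjusted p = 0.0893) or PBS replicate 3 (0.0574). The share of *LRP5* in the sum of both was 66.26% ± 0.36 with PBS and 56.82% ± 0.48 with PP (SD, n = 3). *RYK*, a WNT-binding receptor of the tyrosine kinase family, was higher by 0.22 (SE 0.04, adjusted p = 0.000363), from 30.52 to 31.67 FPKM with PBS and 35.46 to 37.03 with PP. *ROR2*, another WNT-binding member of that family, was low at 0.214 to 0.422 FPKM over the 6 libraries and was not called.

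**Figure D3:**
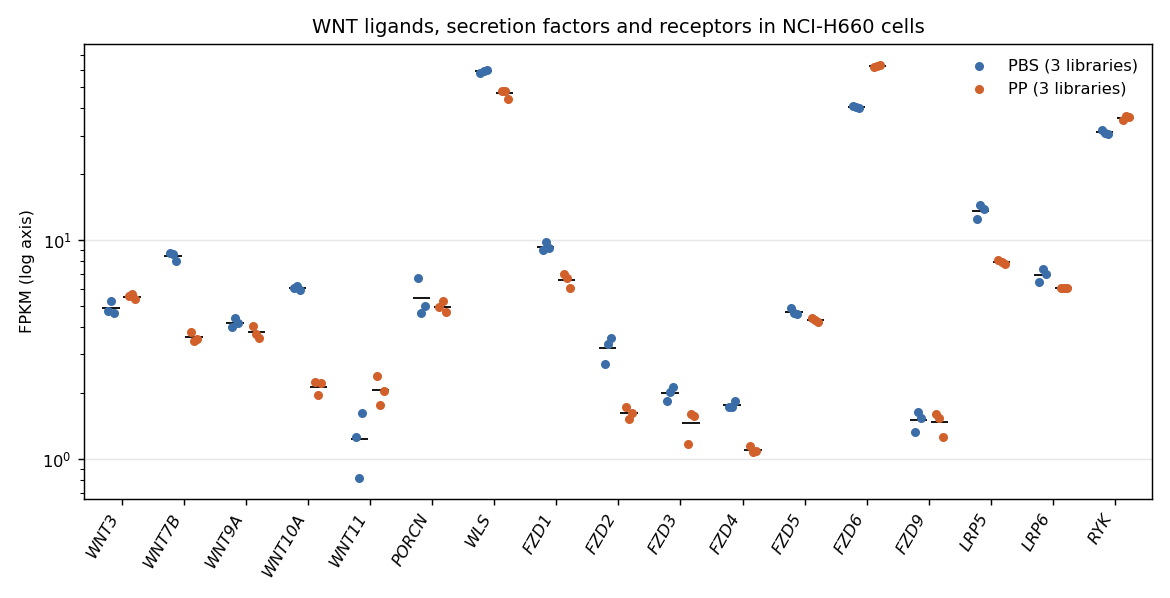
Each point is the FPKM of 1 library on a log axis, for the tested ligands, secretion factors and receptors, with PBS in blue, PP in orange and a bar at the mean of 3 libraries. *WNT7B*, *WNT10A*, *FZD2* and *LRP5* show PP points far below the PBS points, *FZD6* and *RYK* show them above, and *PORCN* and *FZD9* overlap.

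The 3 dishevelled genes, which link the receptors to the destruction complex, were all expressed, and 2 were higher with PP and 1 was not called. Among all genes, 38.1% were called higher. *DVL1* had 22.4, 23.7 and 22.6 FPKM with PBS and 32.1, 29.2 and 25.3 with PP. The PP libraries spread more widely and all lay above the PBS libraries, at a log2 difference of 0.32 (SE 0.07, adjusted p = 0.00246). *DVL2*, the most abundant of them, had 85.3, 86.3 and 90.6 FPKM with PBS and 110.3, 103.9 and 97.9 with PP. It did not overlap either and was higher by 0.25 (SE 0.05, adjusted p = 0.000699). *DVL3* differed by 0.07 (95% interval -0.01 to 0.14, adjusted p = 0.089), and limma-voom on the counts called it higher (0.07, adjusted p = 0.0486).

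Of the 13 genes of the destruction complex, 11 were tested, of which 4 were higher, 1 was lower and 6 were not called. For this group 36.4% were higher and 9.09% lower, beside 38.1% and 34.4% of all genes. Its median log2 difference was 0.03. *CSNK1A1* (chr5:149492982-149551439), which encodes CK1α, had 40.6, 41.2 and 41.5 FPKM with PBS and 54.0, 51.9 and 52.7 with PP. Its PBS libraries agreed within about 1 FPKM and every PP library was above them. The log2 difference was 0.36 (SE 0.03, adjusted p = 6.1e-06), a level 28.7% above the control, on 6793 to 7291 counts per PBS library and 8829 to 9721 per PP library. In the GENCODE annotation mapped to GRCh37, 49.3% of its exonic bases are shared with a long non-coding RNA gene on the same strand, so some of its reads may be left out or assigned to that gene. *CSNK1D*, a related kinase, was higher by 0.12 (SE 0.04, adjusted p = 0.021), and that call was lost with median-ratio scaling (adjusted p = 0.0674) and without PBS replicate 3 (0.0889), PP replicate 1 (0.0615) or PP replicate 2 (0.0721). *CSNK1E* had a mean under 1 FPKM and was not called at -0.09 (adjusted p = 0.442), and it lies within a readthrough gene that the table also lists, so its reads could be divided.

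The scaffold *AXIN1* (chr16:287440-352723), usually the scarcest protein of the complex, had the largest rise of the group. It had 12.5, 12.5 and 11.9 FPKM with PBS and 19.2, 18.9 and 18.3 with PP. The gap was many times the spread within either treatment, and the log2 difference was 0.57 (SE 0.04, adjusted p = 1.06e-06). *TNKS2*, a tankyrase that marks AXIN proteins for breakdown, had 12.3, 13.0 and 12.0 FPKM with PBS and 15.9, 16.6 and 16.4 with PP. It did not overlap and was higher by 0.37 (SE 0.05, adjusted p = 4.04e-05). The other tankyrase, *TNKS*, differed by 0.10 (95% interval -0.01 to 0.21, adjusted p = 0.0985), and limma-voom called it higher (0.11, adjusted p = 0.0288).

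*AXIN2* (chr17:65528563-65561648), a scaffold and the most widely used readout of the pathway, had 2.37, 2.24 and 2.49 FPKM with PBS and 1.895, 1.895 and 2.099 with PP. The PP libraries were lower without overlap, but the step was small. The log2 difference was -0.18 (SE 0.07, adjusted p = 0.0277), and the call was lost without PBS replicate 1 (adjusted p = 0.0593), PBS replicate 3 (0.0968), PP replicate 1 (0.0749) or PP replicate 2 (0.0774). In the same annotation 25.3% of its exonic bases are shared with another gene on the same strand. The sum of both AXIN genes was 14.68 ± 0.27 FPKM with PBS and 20.78 ± 0.33 with PP (SD, n = 3), of which *AXIN1* was 83.86% ± 1.09 and 90.54% ± 0.72.

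*CTNNB1* (chr3:41199505-41240443), which encodes β-catenin, was the most abundant gene of the list. Its FPKM was 116.7, 121.5 and 129.4 with PBS and 126.2, 116.3 and 112.9 with PP. The 2 sets overlapped, and the log2 difference of -0.05 had a 95% interval of -0.16 to 0.06 (adjusted p = 0.399). The kinase genes *GSK3A* at -0.01 (-0.11 to 0.08) and *GSK3B* at -0.07 (-0.18 to 0.04), the scaffold *APC* at -0.04 (-0.17 to 0.08) and *BTRC*, which encodes the ubiquitin ligase subunit that recognises marked β-catenin, at 0.03 (-0.14 to 0.21) were likewise not called. *GSK3B* was called lower only without PP replicate 3 (-0.13, adjusted p = 0.0187) among its 15 alternatives. *APC2*, at 27 to 57 counts per library, was not called at -0.09 (adjusted p = 0.209), while limma-voom gave -0.77 (adjusted p = 0.0393). In simulated data with 3 libraries per treatment, 34 of 50 well-counted genes with a true log2 difference of 0.322 were called. There 11521 of 11718 genes were unchanged, whereas 38.1% of the real genes were called higher and 34.4% lower. The adjustment is less strict in that case, so the simulated share does not measure what this fit could miss. Where given, the 95% intervals show which sizes remain possible for a gene that was not called.

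**Figure D4:**
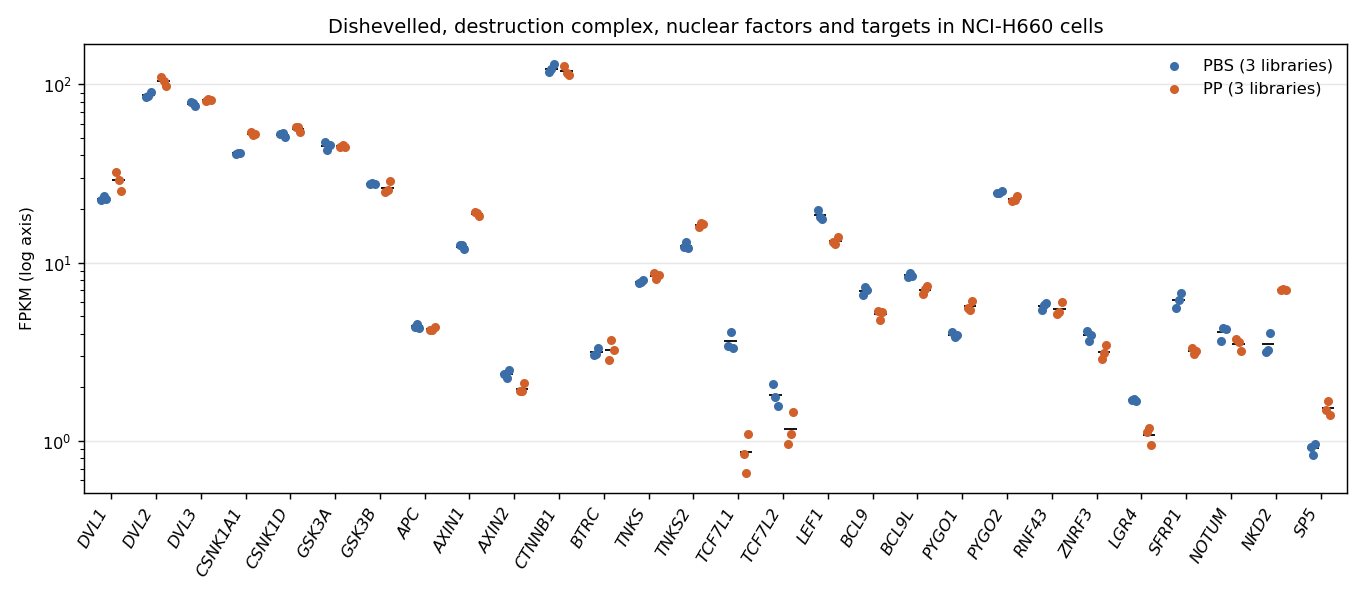
Each point is the FPKM of 1 library on a log axis for the tested dishevelled, destruction complex, nuclear, turnover, inhibitor and target genes, with PBS in blue, PP in orange and a bar at the mean of 3 libraries. *CTNNB1*, *GSK3A* and *APC* overlap between treatments, *CSNK1A1*, *AXIN1*, *TNKS2* and *NKD2* are higher with PP, and *TCF7L1*, *LEF1* and *SFRP1* are lower.

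Most nuclear factors were lower with PP. Of 8 genes, 7 were tested, and 6 were lower and 1 was higher, with a median log2 difference of -0.37. This is 85.7% lower and 14.3% higher, beside 34.4% and 38.1% of all genes. *TCF7L1* (chr2:85133392-85310387), which encodes a TCF protein known mainly as a repressor, had 3.40, 4.10 and 3.33 FPKM with PBS and 0.84, 0.66 and 1.09 with PP. No PP library came near the PBS libraries. The mean was 3.61 with PBS and 0.87 with PP, so this gene passed the filter only through its PBS libraries. The log2 difference was -1.31 (SE 0.10, adjusted p = 9.62e-07), with 311 to 359 counts per PBS library and 60 to 107 per PP library, and on the recovered counts limma-voom gave -2.06 (SE 0.20). *LEF1* (chr4:108047548-108168932), a partner of β-catenin and itself a target, had 19.8, 18.0 and 17.6 FPKM with PBS and 13.1, 12.7 and 13.9 with PP. It fell by 0.45 on the log2 scale without overlap (SE 0.06, adjusted p = 3.65e-05).

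*TCF7L2*, another partner of β-catenin, had 2.08, 1.76 and 1.58 FPKM with PBS and 0.97, 1.09 and 1.45 with PP. The 2 sets only just failed to meet, and the log2 difference was -0.38 (SE 0.10, adjusted p = 0.00619). *TCF7* stayed under a mean of 1 FPKM and was not called at -0.16 (adjusted p = 0.0747), although limma-voom on the counts gave -0.43 (adjusted p = 0.00884). The sum of the 4 TCF/LEF genes was 24.67 ± 1.38 FPKM with PBS and 15.84 ± 0.95 with PP (SD, n = 3). *LEF1* made up 74.91% ± 1.57 and 83.51% ± 0.98 of it, and *TCF7L1* 14.66% ± 1.82 and 5.42% ± 1.03.

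The co-activators that bridge β-catenin to transcription were divided. *BCL9* fell by 0.37 (adjusted p = 0.000258) and its relative *BCL9L* by 0.24 (adjusted p = 0.00258) on the log2 scale. In the GENCODE annotation, 36.3% of the exonic bases of *BCL9L* are shared with *CXCR5* on the opposite strand, and whether the counting used the strand is not given in the sources used here. *PYGO1*, which encodes a protein that reads histone marks beside BCL9, had 4.06, 3.81 and 3.91 FPKM with PBS and 5.58, 5.44 and 6.12 with PP. All of its PP libraries were higher, at a log2 difference of 0.44 (SE 0.06, adjusted p = 6.95e-05). *PYGO2*, at 22.1 to 25.1 FPKM, differed by -0.11 (adjusted p = 0.0262), and this call was lost without PBS replicate 2 (adjusted p = 0.0585), PBS replicate 3 (0.0888), PP replicate 1 (0.0804) or PP replicate 2 (0.0704).

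Receptor turnover depends on RNF43 and ZNRF3, ligases that remove frizzled proteins from the surface, and on the LGR receptors, which bind R-spondins and hold those ligases back. Of the 4 genes, 3 were tested and 2 were lower, beside 34.4% lower of all genes. *LGR4* had 1.70, 1.72 and 1.68 FPKM with PBS and 1.12, 1.19 and 0.95 with PP. There was no overlap, and the log2 difference was -0.38 (SE 0.07, adjusted p = 0.000842). *ZNRF3* had 4.12, 3.65 and 3.95 FPKM with PBS and 2.90, 3.10 and 3.45 with PP. Its PP libraries were lower too, by 0.24 on the log2 scale (SE 0.07, adjusted p = 0.00933). *RNF43* was not called at -0.05 (95% interval -0.19 to 0.09, adjusted p = 0.504), and 68.4% of its exonic bases are shared with another gene on the same strand. *LGR5*, at 2 to 31 counts per library, was not called at -0.10 (adjusted p = 0.239).

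Of the secreted inhibitors, *SFRP1*, which binds WNT proteins outside the cell, had 5.56, 6.17 and 6.75 FPKM with PBS and 3.33, 3.08 and 3.21 with PP. The PP libraries were alike and far below the lowest PBS library, at a log2 difference of -0.77 (SE 0.07, adjusted p = 3.82e-06). *NOTUM*, an enzyme that removes the lipid from WNT proteins and is itself a target, differed by -0.17 (SE 0.07, adjusted p = 0.0653), which passed an adjusted p of 0.05 only with median-ratio scaling (0.0394), without PBS replicate 1 (0.0201) or without PP replicate 1 (0.0488) among 14 alternatives. *DKK3* was not called at 0.15 (adjusted p = 0.203), except without PBS replicate 3 (0.25, adjusted p = 0.0192), and 47.5% of its exonic bases are shared with *USP47* on the opposite strand.

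Of the 4 other targets, 2 were tested and both were higher with PP, beside 38.1% higher of all genes. *NKD2*, which encodes a dishevelled antagonist, had 3.15, 3.22 and 4.05 FPKM with PBS and 7.02, 7.14 and 6.99 with PP. The PP libraries were nearly equal and all above the highest PBS library, at a log2 difference of 0.85 (SE 0.08, adjusted p = 3.47e-06), the largest rise of the list. *SP5*, whose promoter window is printed above, had 0.93, 0.83 and 0.96 FPKM with PBS and 1.49, 1.68 and 1.39 with PP. Its mean was 0.91 with PBS and 1.52 with PP, so it passed the filter and entered the count of tested genes only through its PP libraries. It was higher in every PP library, by 0.40 on the log2 scale (SE 0.08, adjusted p = 0.000721), on 77 to 95 counts per PBS library and 144 to 161 per PP library. On these counts limma-voom gave 0.74. *SOX9* was at 0.095 to 0.199 FPKM and was not called.

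Of the 12 genes of the list that are widely taken as direct targets of β-catenin and TCF/LEF, 7 were tested. *NKD2* and *SP5* were higher, *LEF1*, *ZNRF3* and *AXIN2* were lower, and *RNF43* and *NOTUM* were not called. That is 28.6% higher and 42.9% lower, beside 38.1% and 34.4% of all genes, so the split was near that of all genes. Their median log2 difference was -0.17, and the range ran from -0.45 to 0.85. *TCF7*, *LGR5*, *DKK1*, *NKD1* and *SOX9* were under the filter, and *SP5* passed it only through its PP libraries.

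**Figure D5:**
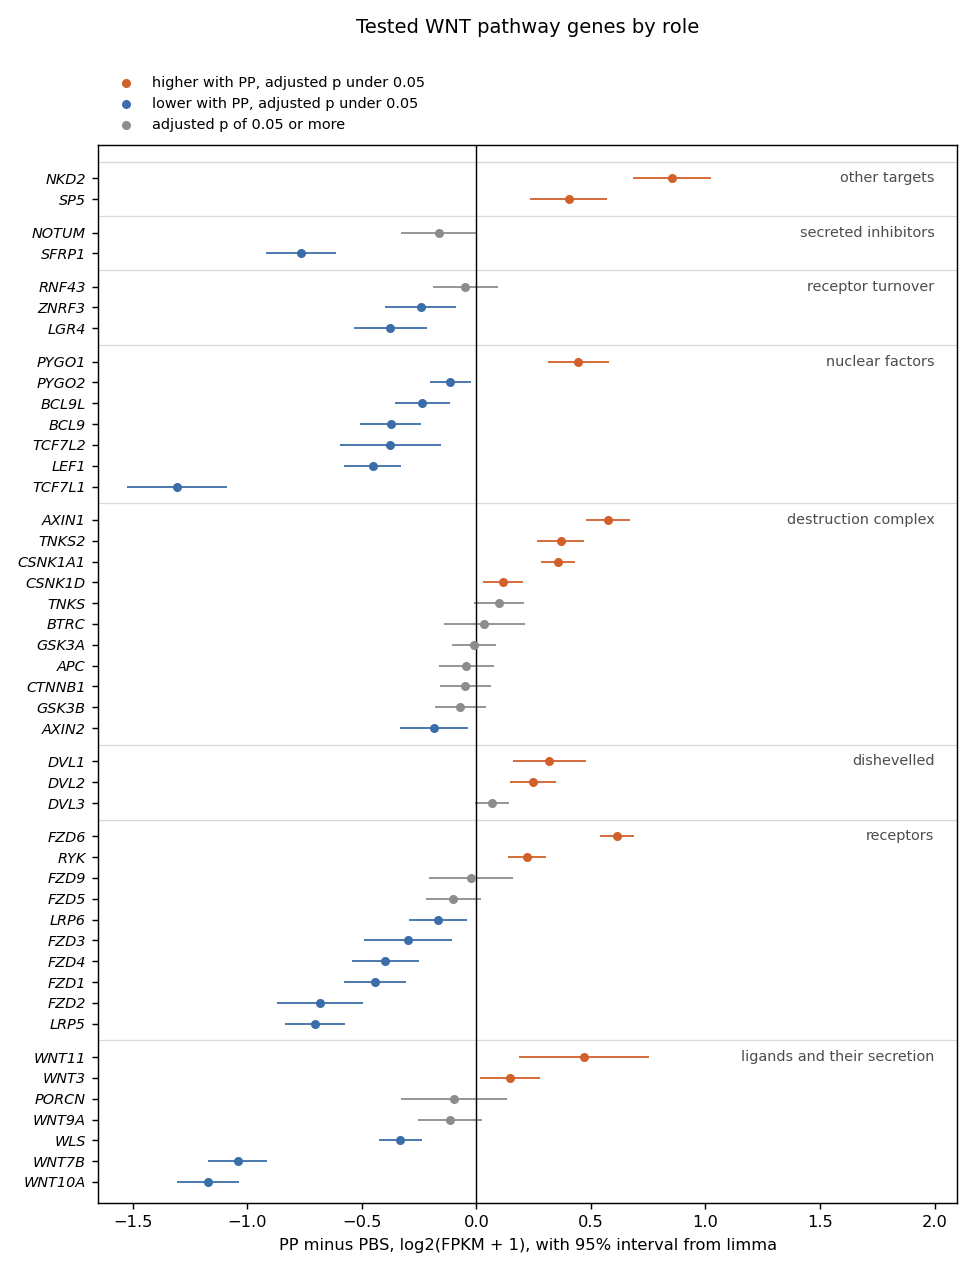
Points give the difference in log2(FPKM + 1) between PP and PBS and lines its 95% interval from limma, for the 45 tested genes grouped by role. Orange marks genes called higher, blue genes called lower and grey those with an adjusted p of 0.05 or more. The nuclear factors lie left of 0 except *PYGO1*, the dishevelled genes lie right of it, and most of the destruction complex has intervals that cross it.

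Genes of the wider pathway were counted from a second list of 104 symbols, also chosen with earlier results of these data known, of which 79 were tested. With PP, 23 of them were higher and 42 were lower, or 29.1% and 53.2% beside 38.1% and 34.4% of all genes, with a median log2 difference of -0.16. By kind, 1 of 7 tested secreted modulators was higher and 6 were lower, 7 of 17 partners of the destruction complex were higher and 7 lower, 6 of 22 nuclear partners were higher and 10 lower, 6 of 18 genes of planar polarity and calcium signalling were higher and 9 lower, and 3 of 15 reported targets were higher and 10 lower. Another 10 genes of that list had a mean FPKM from 0.1 to 1. Of these, 1 was higher and 1 was lower in the fit over 13771 genes, beside 34.4% and 32.4% of all genes in that fit. *SFRP4*, a secreted WNT inhibitor related to *SFRP1*, held 6, 2 and 1 counts in the PBS libraries and 17, 34 and 17 in the PP libraries. All PP libraries were above all PBS libraries, at a log2 difference of 0.28 (SE 0.08, adjusted p = 0.0105) and of 2.88 (SE 0.69) by limma-voom on these few counts. *SFRP4* averaged 0.03 FPKM with PBS and 0.26 with PP, so it passed the filter of 0.1 and was tested only through its PP libraries. *VANGL2*, a membrane protein of planar polarity, was lower by 0.26 on the log2 scale (adjusted p = 0.00752), with 99 to 129 counts per PBS library and 54 to 75 per PP library.

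At the lower end of that list stood *SFRP5*, a secreted WNT inhibitor related to *SFRP1*, with 119.3, 116.1 and 126.5 FPKM in the PBS libraries and 15.4, 14.2 and 14.4 in the PP libraries, a log2 difference of -2.96 (SE 0.05, adjusted p = 3.49e-11). Every PP library was far below every PBS library, and *SFRP5* with PBS had nearly the level of *CTNNB1*. It was followed by *ID2*, an inhibitor of basic helix-loop-helix factors, at -2.17, *EPHB2*, an ephrin receptor and reported target, at -1.12, *PRICKLE4*, of the planar polarity family, at -0.88 and *MET*, the hepatocyte growth factor receptor, at -0.87. At the upper end, *MYC*, often cited as a target of β-catenin, had 7.05, 5.99 and 6.13 FPKM with PBS and 46.9, 51.5 and 49.2 with PP. That was the widest gap upward, at a log2 difference of 2.77 (SE 0.06, adjusted p = 1.75e-10). *CTHRC1*, a secreted protein that binds WNT and frizzled, followed at 1.21, then *CELSR1*, a planar polarity cadherin, at 0.84, *CLDN1*, a tight junction protein, at 0.74 and *DAAM1*, a formin that binds dishevelled, at 0.71. Each of these 10 had an adjusted p of 0.000335 or less.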

How the data were processed

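RNA-seq libraries of NCI-H660 cells (3 with PBS, 3 with PP, poly(A) RNA, stranded kit, paired reads) were used as the authors deposited them, a table of FPKM for 17177 gene symbols. The submitters' processing notes name fastp, HISAT2, HTSeq and GRCh38, whereas the study's methods name Bowtie, hg19, RSEM and HTSeq and give Cufflinks as the source of FPKM. As these differ, which of them made the deposited FPKM is unclear, and the annotation and the strand setting are not given in the sources used here. The methods describe duplicates, while the labels list 3 libraries per treatment and the study's legends speak of 3 independent samples.

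Each gene above 0 came out as whole counts and a whole length (100% of 16909 genes, within 0.02 of a whole number), and 268 genes were at 0. Recovered totals were 30863836, 29217691 and 31138997 for PBS and 30598419, 30106355 and 32655272 for PP. Libraries took their treatment from the labels. Differences were fitted on log2(FPKM + 1) with limma 3.58.1 (lmFit, eBayes with trend) in R 4.3.3 on the 11726 genes averaging 1 FPKM or more, or on 13771 averaging 0.1 or more for scarcer genes, with Benjamini-Hochberg adjustment. Adding 1 understates the change of low genes. limma-voom on the recovered counts was an alternative, beside other pseudocounts, filters, scaling, no trend, a replicate block and leaving out each library.

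The genes and both lists were chosen with earlier results of these data known. Named with all libraries were *CSNK1A1*, *CTNNB1*, *AXIN2*, *LEF1* and, per role, up to 4 called genes with the largest differences, and from the wider list the 5 at each end, with other genes by short values. Tested on simulated data for PP against PBS over 11718 genes, the fit called 49 of 50 genes changed by 0.585, 50 of 50 changed by 1 and 23 of 11521 unchanged genes. The simulation gave all genes the same assumed spread between libraries and changed only well-counted genes. Its results thus do not carry over to scarce genes. Same-numbered PBS and PP libraries did not deviate together (correlations of -0.211, -0.014 and -0.127). Coordinates and promoter windows are from RefSeq on GRCh38.p14 and gene overlaps from GENCODE mapped to GRCh37.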

Additional observations from a re-analysis of the deposited data

How the results depend on the processing

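Over the alternatives, 10 to 14 of the WNT pathway genes were called higher and 9 to 23 lower. Of all genes, 3529 to 4736 were called higher and 3031 to 4458 lower, with 8660 to 16909 genes tested. The low end of 9 came with a filter at a mean FPKM of 5, which tests fewer genes (8660). There 10 WNT pathway genes were higher and 9 lower, beside 3529 higher and 3031 lower of all genes, so lower calls did not outnumber higher ones. That filter also left 1 gene lower past the study's limits and 27 lower genes of the wider list. With a pseudocount of 0.1 and with limma-voom on the recovered counts, 1 gene (*NKD2*) passed those limits upward. Of the genes with a mean FPKM from 0.1 to 1, limma-voom called 6. Leaving out 1 library at a time gave 11 to 13 higher and 16 to 20 lower genes, always 3 lower and 0 higher past the limits, 1 to 4 called scarce genes, 22 to 23 higher and 38 to 42 lower genes of the wider list, and 4161 to 4261 higher and 3724 to 3958 lower genes in all. The 1 came without PP replicate 2 or PP replicate 3 and the 4 without PBS replicate 1.

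Of 848 recomputed differences of single genes, 800 kept their direction and side of the threshold, 28 lost a call, 15 gained one and 5 turned, the last all in genes with no call: *PORCN* at 0.038 (-0.19 to 0.038 over the libraries left out) and *GSK3A* at 0.021 (-0.050 to 0.021) without PBS replicate 1, *FZD9* at 0.019 without PBS replicate 2 and 0.039 without PP replicate 3 (-0.075 to 0.039), and *BTRC* at -0.041 without PP replicate 2 (-0.041 to 0.11). Of 34 called genes, 28 held in every alternative, the exceptions being *WNT3*, *WNT8B*, *LRP6*, *CSNK1D*, *AXIN2* and *PYGO2*. The cause of the lost calls was not tested. The labels share replicate numbers but do not say that these pair libraries, and same-numbered libraries did not deviate together. With a replicate block, *WNT3* (0.15, adjusted p = 0.057) and *PYGO2* (-0.11, adjusted p = 0.0551) lost their calls. With 3 counts per library as the floor, genes with few counts cannot be compared at this depth, and intervals from counts cover counting error only.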
